A study of Mus musculus with 10 samples.

Results

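The voltage-gated sodium and calcium channel genes are the protein-coding genes whose symbols begin Scn, Cacna1, Cacna2d, Cacnb or Cacng with a numbered channel subunit. The files held 40 of them among 54532 genes, of which 22046 are protein coding. They comprised 10 sodium channel alpha subunits, 4 sodium channel beta subunits, 10 calcium channel alpha1 subunits, 4 alpha2delta subunits, 4 beta subunits and 8 gamma subunits. By tissue of known use, 26 were placed in a neuron class, 3 in a hair cell class, 8 in a muscle class, 2 in a retina class and 1 in a glia class. The rule used the symbols and the protein-coding label and no measured value. It was set, however, with earlier results of these data known.

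An alpha subunit forms the pore of a sodium channel and the beta subunits set its gating and its place in the membrane. In a calcium channel the alpha1 subunit forms the pore, while the alpha2delta and beta subunits carry it to the surface and shape its current, and most gamma subunits instead serve AMPA receptors. In the cochlea, sodium channels start and carry the spikes of the auditory nerve, and the L-type channel built on Cacna1d lets calcium into the inner hair cell to release transmitter onto it.

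RNA was sequenced from the cochlea of 12-month-old mtKeima mice, a wild-type strain that carries a pH-sensitive fluorescent reporter in mitochondria, and both groups carried it. The 5 NR mice had drunk nicotinamide riboside, a precursor of NAD+, at 7 mg/ml (24 mM) for 10 months, beginning when they were 2 months old. The 5 Vehicle mice had drunk regular water. The labels call the mice female and the study's methods call them male. Whole cochlea was used, so that fewer cells of a type and less RNA per cell cannot be told apart for any gene below.

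The libraries held 17060379 to 24419230 counted reads each, and the channel genes took 0.150% to 0.202% of them. Levels are given as CPM, the read count scaled to the TMM-adjusted size of its library, and as CPM per kb of exonic length where genes are compared. A count of 3 reads, taken as the floor of detection, corresponded to 0.121 to 0.174 CPM. Markers of the labelled tissue were present in every library. The summed level of 14 genes of spiral ganglion neurons, a list not particular to them, was 5905 to 8889 CPM. That of 14 hair cell genes was 332 to 776 CPM.

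Some libraries stood apart in markers of other cells. The summed level of 16 skeletal muscle genes was 1161 CPM in NR 3 and 965 CPM in NR 5, against 46.8 to 147 CPM in the other 8 libraries. Hair cell genes summed to 726 CPM in Vehicle 3 and 776 CPM in Vehicle 4, against 332 to 515 CPM elsewhere. P2rx3, an ATP receptor of peripheral sensory ganglia, was at 50.9, 46.4 and 61.8 CPM in NR 1, NR 3 and NR 5 and at 53.9 CPM in Vehicle 1. It was at 1.17 to 4.54 CPM in the other 6 libraries. The fits were repeated without each of these sets of libraries, which were picked after their values were seen, and the values are given for each member called at the unadjusted threshold and for some of the others.

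Values are given one by one for 38 of the 40 members, while counts over the members cover all 40. Per kb of exonic length, the level of the 38 genes in the Vehicle mice ran from 64.9 ± 10.4 CPM per kb (SD, n = 5), for the sodium channel beta subunit Scn4b, down to 0.0135. Cacng7 was at 42.0 ± 7.61 CPM per kb and the calcium channel beta subunit Cacnb3 at 30.6 ± 3.60. The pore-forming gene with the highest level was Scn8a, at 9.71 ± 1.39 CPM per kb, and Scn1a came next among the sodium pores at 6.06 ± 0.592. Among calcium pores Cacna1a, the P/Q-type channel of nerve terminals, led at 5.16 ± 0.887 CPM per kb, before Cacna1d at 3.62 ± 1.05. Of the 37 pairs of neighbors in this order, 5 had mean ± SD ranges that did not meet, namely the first 4 and the pair of Scn2a and Cacng8, and the ranges of the other 32 pairs overlapped. The lowest were Cacna1f, Cacna1s, Cacng3 and Cacng6, at 0.0280, 0.0243, 0.0191 and 0.0135 CPM per kb.

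**Figure D1:**
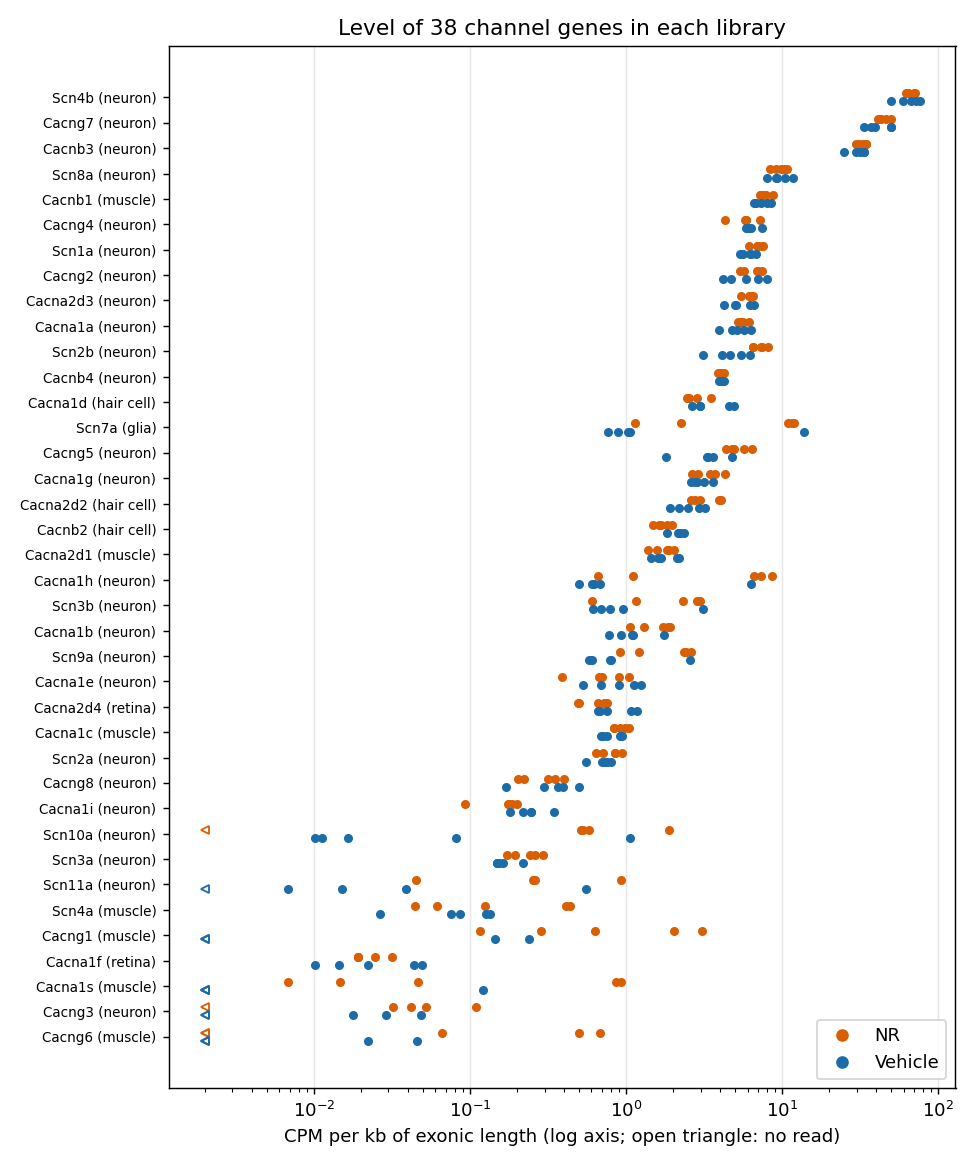
Level of 38 channel genes in CPM per kb of exonic length on a log axis, 1 point per library with NR in orange and Vehicle in blue, ordered by the Vehicle mean, with open triangles for libraries without a read. Scn4b lies at the top near 64.9 CPM per kb, and Scn7a, Cacna1h, Scn10a, Scn11a and Cacna1s are drawn out over a wide range by a few libraries.

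The comparison between NR and Vehicle asked which transcripts differ in the cochlea after long treatment. Of the 40 channel genes, 35 passed the filter on low counts and were tested with edgeR's quasi-likelihood test. The 5 that did not pass were Cacna1s, Cacng1 and Cacng6 of skeletal muscle, Cacna1f of the retina and Cacng3 of the brain. At an unadjusted p of 0.05, the threshold the study used, 4 members were higher in NR (11.4% of 35, against 4.83% of all tested genes). These were Scn2b, Cacng5, Scn1a and Scn3a. Another 3 members were lower (8.57%, against 4.88% of all tested genes), namely Cacnb2, Cacna1i and Cacna2d4. With Benjamini-Hochberg adjustment over the 18329 tested genes, 0 members passed 0.05 in either direction (0.0% of all tested genes), and the smallest adjusted p among them was 0.408. DESeq2, the study's tool, called 8 of the 40 members higher (against 3.5% of its 33153 genes) and 4 lower (against 3.08%) at the unadjusted threshold. Those 33153 genes include many that did not pass the filter on low counts. Among the 18329 genes that passed it, DESeq2 called 1020 higher and 915 lower. Beside the 7 members above, the members that DESeq2 called were Cacna1b, Cacna2d2, Cacng1 and Cacng6 on the higher side and Cacna1d on the lower. It called 1 member at an adjusted p of 0.05 (0.265% of its genes were called higher), and this was the muscle gene Cacng1.

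The log2 fold change of NR over Vehicle was above 0 in 25 of the 35 members and below 0 in 10, with a median of 0.18, against a median of -0.009 over all tested genes. In the neuron class 19 of 25 tested genes lay above 0 with a median of 0.18, and 4 were called higher and 1 lower. In the muscle class 4 of 5 tested genes lay above 0 with a median of 0.20 and none was called. In the hair cell class 2 of 3 genes lay below 0 with a median of -0.32. The number called depended on single libraries, for the members and for all tested genes. With all libraries, 886 of all tested genes were higher and 894 lower. Without Vehicle 1, 13 members were higher and 4 lower, beside 1223 and 1059 of all tested genes. Without NR 3, 2 members were higher and 2 lower, beside 669 and 484 of all tested genes. Without NR 1 or without Vehicle 4, 1 member was lower, beside 521 or 763 of all tested genes.

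**Figure D2:**
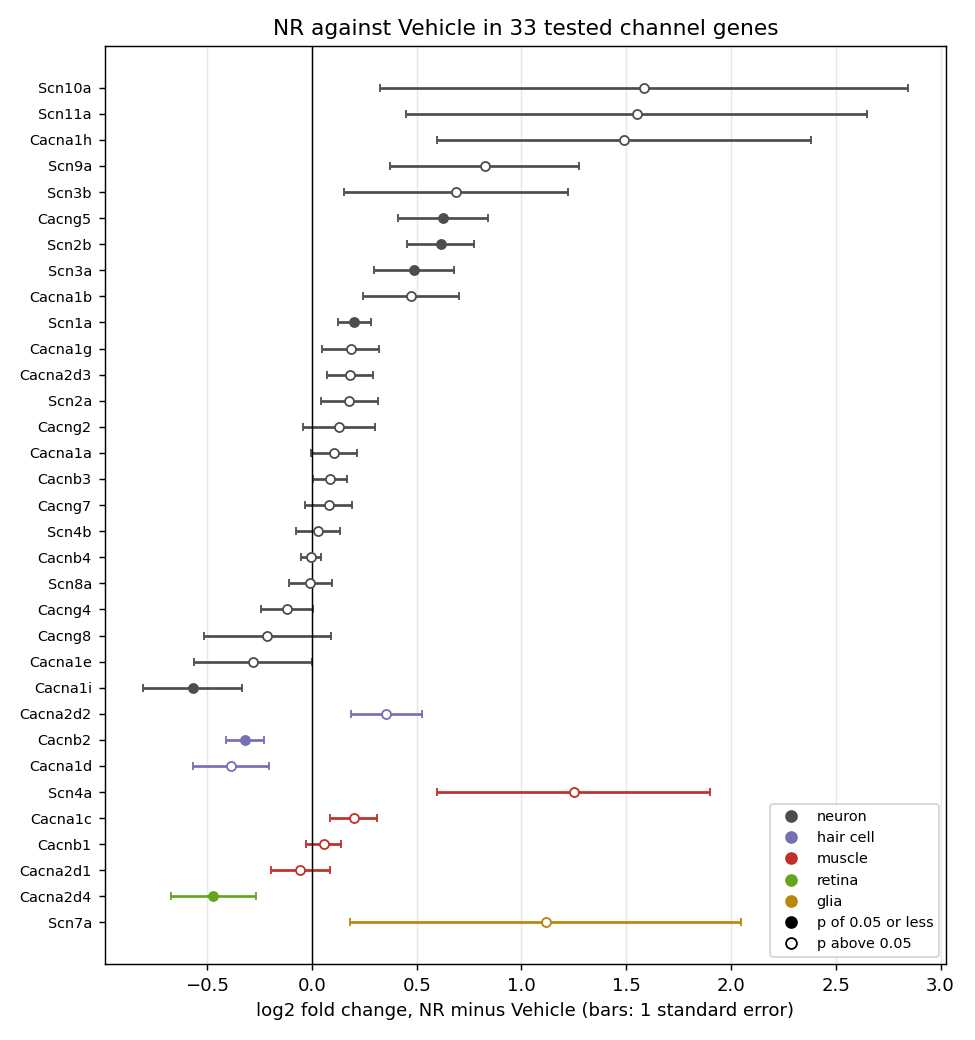
Log2 fold change of NR over Vehicle with 1 standard error for 33 of the 35 tested channel genes, colored by class of use and filled where the unadjusted edgeR p was 0.05 or less. The filled points are Scn2b, Cacng5, Scn3a and Scn1a above 0 and Cacnb2, Cacna2d4 and Cacna1i below 0, while the points farthest to the right, Scn10a, Scn11a and Cacna1h, have the widest bars.

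For the members discussed most below, the reference sequence just before the gene start is shown to make the genes concrete and to mark a motif. The windows run up to 250 bases before the RefSeq transcription start (GRCm38.p6), on the strand of the gene and 5′ to 3′, without the bases inside the gene as the count files place it. Capitals mark CAGCTG, an E-box of the kind bound by muscle and neuronal helix-loop-helix factors, which reads the same on both strands. It was present in 11 of 41 windows of the members (26.8%), which cover 30 of the 40 genes, and in 13% of 32851 windows of all genes. The median GC content was 56.8% in the windows of the members and 52.4% in all. Scn2b is shown because it separated the groups, Scn7a, Scn9a and Scn11a because they followed particular libraries, and Cacna1s for skeletal muscle.
Scn2b, chr9:45117626-45117781, plus strand: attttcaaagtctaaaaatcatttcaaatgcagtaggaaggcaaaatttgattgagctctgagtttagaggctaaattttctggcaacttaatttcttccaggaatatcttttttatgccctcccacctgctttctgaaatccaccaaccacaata
Scn7a, chr2:66784915-66785160, minus strand: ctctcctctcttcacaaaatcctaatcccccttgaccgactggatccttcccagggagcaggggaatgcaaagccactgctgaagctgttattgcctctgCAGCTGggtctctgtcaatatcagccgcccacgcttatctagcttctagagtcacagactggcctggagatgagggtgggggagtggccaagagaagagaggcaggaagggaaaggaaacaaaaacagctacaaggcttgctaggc
Scn9a, chr2:66634963-66635212, minus strand: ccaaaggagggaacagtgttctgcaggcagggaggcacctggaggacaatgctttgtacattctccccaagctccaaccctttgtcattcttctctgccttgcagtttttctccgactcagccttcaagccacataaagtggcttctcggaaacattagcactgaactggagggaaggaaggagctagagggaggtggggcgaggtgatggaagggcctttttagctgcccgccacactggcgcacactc
Scn11a, chr9:119825457-119825706, minus strand: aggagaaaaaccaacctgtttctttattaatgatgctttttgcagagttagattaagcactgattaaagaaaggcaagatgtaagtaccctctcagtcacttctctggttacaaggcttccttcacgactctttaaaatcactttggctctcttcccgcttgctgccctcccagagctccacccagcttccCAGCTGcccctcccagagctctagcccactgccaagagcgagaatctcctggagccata
Cacna1s, chr1:136052561-136052749, plus strand: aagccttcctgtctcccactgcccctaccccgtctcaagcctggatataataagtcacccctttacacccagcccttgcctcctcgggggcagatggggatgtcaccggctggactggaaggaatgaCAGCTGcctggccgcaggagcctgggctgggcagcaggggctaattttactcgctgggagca
CAGCTG is thus present in the windows of Scn7a, Scn11a and Cacna1s and in neither of the other windows printed. Other forms of the E-box were not searched for. The Scn2b window is the most AT-rich of these, at 35.3% GC, against 60.8% for Cacna1s.

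Among the sodium channel beta subunits, Scn2b was the only member of the whole set whose groups did not overlap. It encodes a beta subunit that is linked to the pore by a disulfide bond and lies at chr9:45117782-45130070 of mm10 (GRCm38). Scn2b was at 37.9, 30.1, 34.8, 30.2 and 33.9 CPM in NR 1 to NR 5. In Vehicle 1 to Vehicle 5 it was at 28.9, 21.5, 14.4, 19.1 and 25.2 CPM. Every NR library was thus above every Vehicle library, which held for 0.769% of all tested genes, whereas 0 members had every NR library below every Vehicle library (0.878% of all tested genes). The log2 fold change was 0.61 (SE 0.16), with an edgeR p of 0.00289 and an adjusted p of 0.408. DESeq2 gave an adjusted p of 0.0505. The exact two-sided permutation test gave p = 0.00794, the smallest that the labelings of 10 libraries allow, and it was 1 of 38 such tests. The call held in all 10 fits that left out 1 library, with log2 fold changes of 0.51 to 0.74. It also held without the 4 libraries highest in P2rx3 (0.59), without NR 3 and NR 5 (0.60) and without Vehicle 3 and Vehicle 4 (0.41).

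The neighboring gene Scn4b, whose product forms the blocking particle of resurgent sodium current, was among the most abundant transcripts of the set and lies at chr9:45138395-45154152. It was at 319, 309, 348, 319 and 354 CPM in NR and at 335, 358, 297, 248 and 379 CPM in Vehicle. The ranges overlapped widely, with a log2 fold change of 0.028 (SE 0.11). Scn3b was at 16.3, 12.6 and 15.5 CPM in NR 1, 3 and 5 and at 17.0 CPM in Vehicle 1, and at 3.31 to 6.33 CPM in the other 6 libraries.

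Among the sodium pores, Scn8a, the channel of nodes of Ranvier and of axon initial segments, did not differ beyond its spread. It was at 132, 163, 155, 168 and 144 CPM in NR and at 127, 165, 145, 146 and 184 CPM in Vehicle. Its log2 fold change was -0.0077 (SE 0.10), and the range of NR lay within that of Vehicle. Scn1a, a main channel of fast-spiking neurons, was at 68.0, 76.4, 84.0, 77.9 and 82.3 CPM in NR. It was at 62.2, 70.9, 59.6, 69.5 and 75.7 CPM in Vehicle, so that 4 NR libraries lay above every Vehicle library and NR 1 lay inside the Vehicle range. Scn1a had a log2 fold change of 0.20 (SE 0.079), with an edgeR p of 0.0263 and an adjusted p of 0.476. NR 3 and NR 5 were the highest libraries. The call held in 8 of 10 fits that left out 1 library and was lost without NR 3 and NR 5 (0.15, SE 0.091), without the 4 libraries highest in P2rx3 (0.17, SE 0.10) and without Vehicle 3 and Vehicle 4 (0.16, SE 0.086).

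Scn3a, a channel of embryonic neurons that is low in the adult, was at 3.66, 2.15, 3.25, 3.01 and 2.43 CPM in NR. In Vehicle it was at 2.73, 1.84, 1.90, 2.03 and 1.86 CPM, of which Vehicle 1 stood above the other 4. Its log2 fold change was 0.49 (SE 0.19) on 40 to 76 reads per library, with an edgeR p of 0.0267 (adjusted p 0.476). The call was kept in 6 of 10 fits that left out 1 library and was lost in each of the 3 fits without the libraries that stood apart, where the log2 fold change was 0.44 to 0.52. Scn2a, the channel of unmyelinated axons, lies next to Scn3a on chromosome 2 and was at 10.2 ± 1.55 CPM in NR and 9.01 ± 1.19 in Vehicle (SD, n = 5), with a log2 fold change of 0.18 (SE 0.14).

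**Figure D3:**
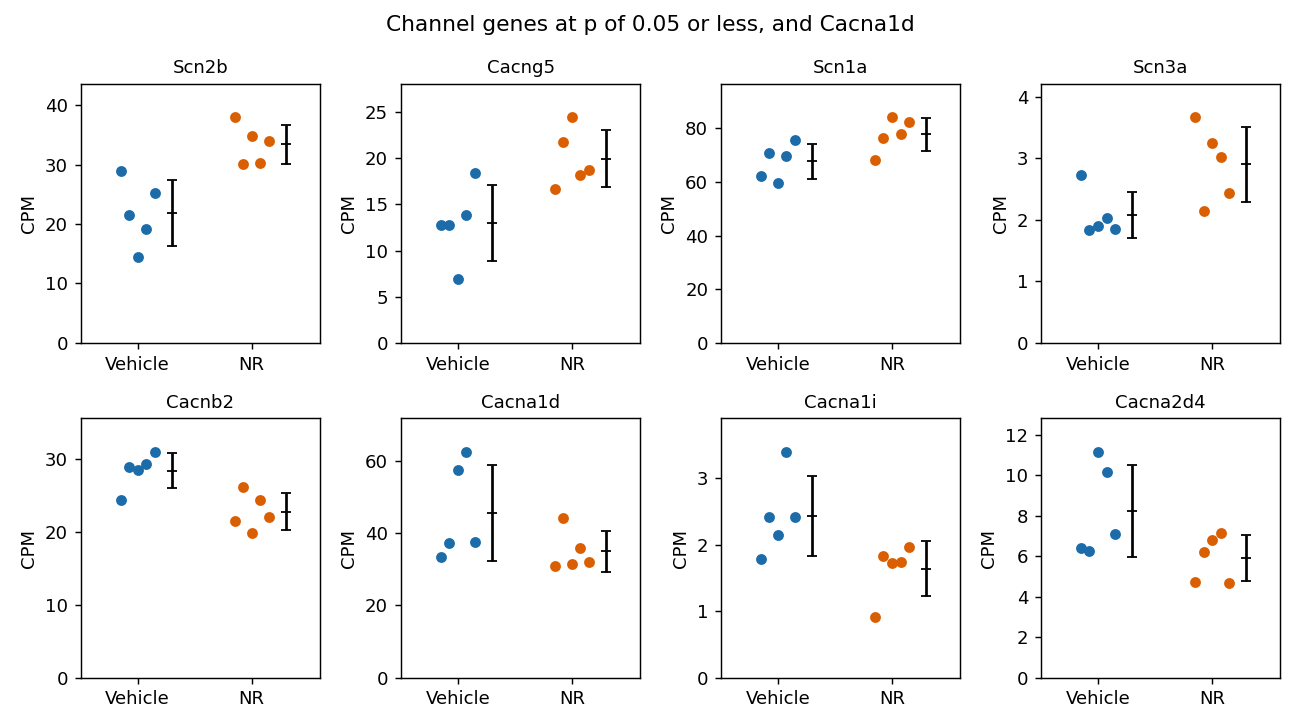
CPM in each library for the 7 channel genes with an unadjusted edgeR p of 0.05 or less and for Cacna1d, with Vehicle in blue, NR in orange and black marks for the mean and SD of each group. In Scn2b alone the NR points, from 30.1 CPM up, lie wholly above the Vehicle points, which end at 28.9 CPM, and in Cacna1d and Cacna2d4 the high Vehicle points are Vehicle 3 and Vehicle 4.

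The voltage-gated channel of the inner hair cell synapse, Cacna1d (Cav1.3, chr14:30039939-30491455), was at 30.9, 44.3, 31.5, 35.9 and 32.0 CPM in NR and at 33.5, 37.3, 57.4, 62.4 and 37.5 CPM in Vehicle. Vehicle 3 and Vehicle 4 were the highest libraries, and the other 3 Vehicle libraries lay within the range of NR. Cacna1d had a log2 fold change of -0.39 (SE 0.18), with an edgeR p of 0.0593 and an adjusted p of 0.529. Without Vehicle 3 and Vehicle 4 it was -0.042 (SE 0.12). The same libraries were highest in hair cell genes. Otof, the calcium sensor of hair cell release, was at 197 and 203 CPM there and at 52.4 to 116 CPM elsewhere, and all 14 hair cell genes had a log2 fold change below 0, with a median of -0.46. The part of hair cell RNA in the Cacna1d difference was not tested beyond this omission. An exonic overlap of 589 bases with Chdh on the other strand (4.67% of the length) adds an uncertainty, since counting took no account of the strand.

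Cacnb2, the beta subunit of the hair cell channel, was the member below Vehicle with the smallest p. It was at 21.5, 26.2, 19.8, 24.3 and 22.0 CPM in NR and at 24.3, 28.9, 28.5, 29.2 and 30.9 CPM in Vehicle. All 4 libraries Vehicle 2 to 5 lay above every NR library, and Vehicle 1 lay inside the NR range. The log2 fold change was -0.32 (SE 0.091), with an edgeR p of 0.00496 and an adjusted p of 0.42, and the exact two-sided permutation test gave p = 0.0159. Without Vehicle 3 and Vehicle 4 it was -0.30 (SE 0.11) and still called, without the 4 libraries highest in P2rx3 it was -0.22 (SE 0.085) and called, and the call also held in all 10 fits that left out 1 library. Without NR 3 and NR 5 it was -0.23 (SE 0.10) and the call was lost. Cacnb2 (chr2:14603088-14987908) is also used in heart and neurons, and its exons overlap those of Gm10848, Gm10849 and Gm13269 on the other strand by 0.839%, 4.67% and 1.81% of its length.

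Cacna2d2, the alpha2delta subunit that tunes the hair cell channel, went the other way. It was at 23.7, 20.6, 31.4, 22.1 and 32.0 CPM in NR and at 25.6, 15.2, 17.4, 23.4 and 19.9 CPM in Vehicle. NR 3 and NR 5 were the highest libraries, and without them the log2 fold change went from 0.36 (SE 0.17) to 0.14 (SE 0.16). It was not called by edgeR in either case. The 3 hair cell class genes thus had log2 fold changes of -0.39, -0.32 and 0.36.

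The retina class holds the partner genes of photoreceptor synapses. Cacna2d4 (chr6:119236526-119352407) was at 4.72, 6.22, 6.79, 7.12 and 4.69 CPM in NR and at 6.40, 6.24, 11.1, 10.1 and 7.11 CPM in Vehicle. Vehicle 3 and Vehicle 4 were again the highest, as for Cacna1d, a pattern that 11.5% of all tested genes shared. Its log2 fold change was -0.47 (SE 0.20), with an edgeR p of 0.0401 and an adjusted p of 0.497, and the call held in 5 of 10 fits that left out 1 library. It was lost without Vehicle 3 and Vehicle 4 (-0.15, SE 0.18), without NR 3 and NR 5 (-0.44, SE 0.25) and without the 4 libraries highest in P2rx3 (-0.38, SE 0.27). Cacna1f, the photoreceptor pore, was low, with 2 to 10 reads per library. It was at 0.289, 0.224, 0.173, 0.175 and 0.174 CPM in NR and at 0.397, 0.449, 0.202, 0.132 and 0.0929 CPM in Vehicle.

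None of the neuronal high-voltage calcium pores was called in the edgeR fit of all 10 libraries with the filter on low counts and no covariate. Cacna1a was at 63.3 ± 4.05 CPM in NR and 58.9 ± 10.1 in Vehicle (SD, n = 5), with a log2 fold change of 0.11 (SE 0.11). Cacna1b, the N-type channel of peripheral sensory terminals, was at 18.3, 10.5, 17.1, 12.9 and 18.9 CPM in NR and at 17.3, 9.20, 7.69, 10.98 and 10.8 CPM in Vehicle. NR 1, NR 3, NR 5 and Vehicle 1 were the highest libraries, and the log2 fold change was 0.47 (SE 0.23). This was short of the unadjusted threshold in that edgeR fit (p 0.0625) and past it in DESeq2 (p 0.0399). Cacna1e, the R-type channel, was at 18.7 ± 6.34 CPM in NR and 22.7 ± 7.54 in Vehicle (SD, n = 5), with a log2 fold change of -0.28 (SE 0.28).

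The T-type, low-voltage pores differed from one another. Cacna1i (Cav3.3, chr15:80287238-80398279), a channel of thalamic bursting, was at 0.916, 1.83, 1.73, 1.75 and 1.97 CPM in NR and at 1.79, 2.42, 2.15, 3.40 and 2.42 CPM in Vehicle. All Vehicle libraries but Vehicle 1 lay above every NR library. Its log2 fold change was -0.57 (SE 0.24) on 19 to 77 reads per library, with an edgeR p of 0.0351 (adjusted p 0.488). The call held in 4 of 10 fits that left out 1 library and without NR 3 and NR 5 (-0.68, SE 0.30). It was lost without Vehicle 3 and Vehicle 4 (-0.43, SE 0.26) and without the 4 libraries highest in P2rx3 (-0.53, SE 0.27). Cacna1g was at 34.5 ± 6.73 CPM in NR and 30.3 ± 4.06 in Vehicle (SD, n = 5). Cacna1h was of another kind: 71.6, 64.1 and 84.5 CPM in NR 1, 3 and 5 and 61.6 CPM in Vehicle 1, but only 4.85 to 10.8 CPM in the other 6 libraries.

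The alpha2delta and beta subunits of neurons and muscle lay close to no difference. Cacna2d3, which has a role in auditory nerve synapses, was at 47.4, 53.9, 56.3, 53.7 and 56.1 CPM in NR and at 47.2 ± 8.31 in Vehicle (SD, n = 5), with a log2 fold change of 0.18 (SE 0.11). Cacna2d1 was at 19.5, 17.1, 23.5, 22.7 and 25.2 CPM in NR and at 27.2, 19.98, 20.7, 26.4 and 17.9 CPM in Vehicle, with a log2 fold change of -0.055 (SE 0.14). Cacnb3 had a log2 fold change of 0.085 (SE 0.083) and Cacnb4, in which mutations cause ataxia in mice, one of -0.0057 (SE 0.049). Cacnb4 was the steadiest member, at 34.6 to 38.3 CPM over all 10 libraries, although 16% of its exonic bases are shared with A430018G15Rik on the other strand.

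The gamma subunits divided into AMPA receptor partners and muscle genes. Cacng5 (chr11:107874605-107915055), a type II regulator of AMPA receptors, was at 16.7, 21.7, 24.4, 18.2 and 18.7 CPM in NR and at 12.8, 12.7, 6.88, 13.9 and 18.4 CPM in Vehicle. Of the NR libraries, 3 lay above every Vehicle library, and NR 1 and NR 4 lay below Vehicle 5 alone. The log2 fold change was 0.63 (SE 0.21), with an edgeR p of 0.014 and an adjusted p of 0.445, and the exact two-sided permutation test gave p = 0.0238. It was called in all 10 fits that left out 1 library and without Vehicle 3 and Vehicle 4 (0.45, SE 0.17). The call was lost without NR 3 and NR 5 (0.56, SE 0.26) and without the 4 libraries highest in P2rx3 (0.63, SE 0.33). Cacng7 was at 105, 121, 101, 113 and 102 CPM in NR and at 91.1, 122, 95.5, 81.9 and 122 CPM in Vehicle, and the range of NR lay within that of Vehicle. Cacng2 (stargazin), Cacng7, Cacng8 and Cacng4 had log2 fold changes of 0.13, 0.080, -0.21 and -0.12, all within 1 SE of 0 (SE 0.17, 0.11, 0.30 and 0.12). Cacng3 was at 0 to 0.303 CPM, with 0 to 7 reads per library.

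A first set of members followed particular libraries. In 6 of the 38 members, namely Cacna1b, Cacna1h, Cacna2d2, Scn3b, Scn7a and Scn9a, the 4 highest libraries were NR 1, NR 3, NR 5 and Vehicle 1, which held for 3.22% of all tested genes. These are the libraries highest in P2rx3. Scn7a, a sodium-sensing channel homolog of Schwann cells and sensory neurons, was at 87.3, 80.1 and 84.3 CPM in NR 1, 3 and 5 and at 101 CPM in Vehicle 1. It was at 8.37 and 16.4 CPM in NR 2 and NR 4 and at 5.66, 6.56, 7.58 and 7.80 CPM in Vehicle 2 to 5. The highest and the lowest libraries were thus both Vehicle libraries. The neighboring gene Scn9a (Nav1.7), a channel of peripheral sensory and autonomic neurons, was at 30.2, 30.7 and 33.1 CPM in NR 1, 3 and 5 and at 33.0 CPM in Vehicle 1, against 7.36 to 15.4 CPM in the other 6 libraries.

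Other markers were compared over the same libraries. Prph, an intermediate filament protein of peripheral neurons, was at 118 to 147 CPM in the 4 libraries and at 2.03 to 26.8 CPM elsewhere. Schwann cell genes did not follow them: their summed level was 4894 to 6108 CPM in the 4 libraries and 4249 to 5515 CPM in the other 6. The defining autonomic genes Dbh, Phox2a and Hand2 were under 1 CPM in every library. The 8 autonomic genes summed to 20.1 to 26.3 CPM in the 4 libraries and to 3.04 to 8.74 CPM elsewhere. The part of such cells in the result was not tested.

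Since 3 of these libraries are NR and 1 is Vehicle, the fold changes between groups were large and uncertain. Cacna1h had a log2 fold change of 1.49 (SE 0.89), Scn7a of 1.12 (SE 0.93), Scn9a of 0.83 (SE 0.45) and Scn3b of 0.69 (SE 0.53). None was called by edgeR or DESeq2 at an unadjusted p of 0.05. Without Vehicle 1 alone, the values were 3.02, 3.01, 1.45 and 1.38, and all were called. Without all 4 libraries, which leaves 2 NR and 4 Vehicle libraries, the values were 0.56 (SE 0.24), 0.85 (SE 0.28), 0.62 (SE 0.20) and 0.22 (SE 0.31). Scn7a and Scn9a were called in that fit, as was Scn10a, described below.

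**Figure D4:**
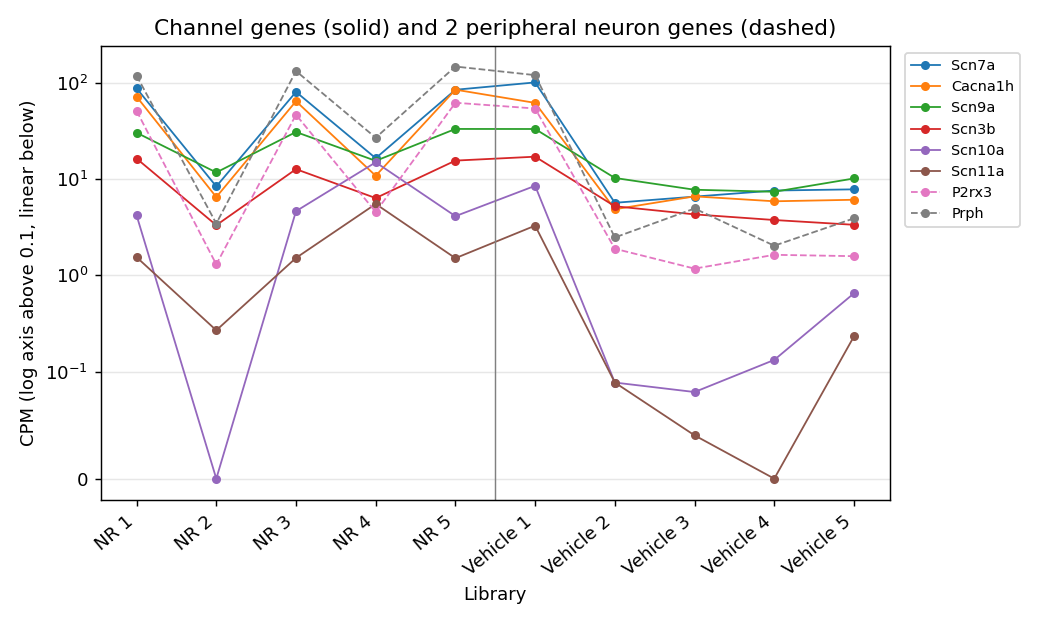
CPM in each of the 10 libraries for 6 channel genes (solid lines) and for P2rx3 and Prph (dashed lines), on an axis that is logarithmic above 0.1 CPM and linear below. Scn7a, Cacna1h, Scn9a and Scn3b peak with P2rx3 and Prph in NR 1, NR 3, NR 5 and Vehicle 1, whereas Scn10a and Scn11a peak in NR 4 and Vehicle 1.

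The channels of nociceptors followed a second set of libraries. Scn10a (Nav1.8) was at 4.19, 0, 4.63, 14.9 and 4.11 CPM in NR and at 8.49, 0.0898, 0.0809, 0.132 and 0.650 CPM in Vehicle. Scn11a (Nav1.9), which lies next to it on chromosome 9, was at 1.54, 0.268, 1.51, 5.50 and 1.51 CPM in NR and at 3.28, 0.0898, 0.0405, 0 and 0.232 CPM in Vehicle. In both genes NR 4 and Vehicle 1 were the highest libraries, a pattern that 1.72% of all tested genes shared, and NR 2 and Vehicle 2 to 5 were near the floor.

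Of 8 nociceptive and somatic sensory genes, 4 also had NR 4 and Vehicle 1 as their highest libraries, and Trpv1 and Calca are given as examples. Trpv1, the capsaicin receptor, was at 5.42 CPM in NR 4 and 1.59 CPM in Vehicle 1 and at most at 0.909 CPM elsewhere. Calca, which encodes CGRP, was at 31.9 and 18.1 CPM there and at 1.61 to 4.76 CPM elsewhere. P2rx3, the most abundant gene of the list, instead had the other pattern, at 4.54 CPM in NR 4. Tac1, which encodes substance P, was highest in NR 3, at 27.2 CPM, and was at 15.8 to 26.7 CPM in the other NR libraries, at 21.9 CPM in Vehicle 1 and at 2.47 to 9.29 CPM in Vehicle 2 to 5. Its log2 fold change was 1.22 (SE 0.44), with an edgeR p of 0.017 (adjusted p 0.458). The summed level of the 8 nociceptive and somatic sensory genes was 78.3 to 106 CPM in NR 1, 3, 4 and 5 and Vehicle 1, and 10.2 to 22.2 CPM in the other 5 libraries. The log2 fold changes of Scn10a and Scn11a between groups were 1.59 (SE 1.26) and 1.55 (SE 1.10). Without NR 4 they were 0.81 and 0.78, and without Vehicle 1 they were 4.55 and 4.47 and were called. Without the 4 libraries highest in P2rx3, Scn10a was at 4.97 (SE 1.55) and called, and Scn11a did not pass the filter on low counts. The NR libraries left in that fit were NR 2, at 0 CPM of Scn10a, and NR 4, at 14.9 CPM, so that the call rested on NR 4.

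The muscle class divided in the same way by library. Scn4a, the sodium channel of skeletal muscle, was at 0.434, 0.313, 3.07, 0.873 and 2.89 CPM in NR and at 0.894, 0.943, 0.607, 0.529 and 0.186 CPM in Vehicle. Cacna1s, the voltage sensor of excitation and contraction in skeletal muscle, was at 0.0964, 0.0447, 5.67, 0.306 and 6.08 CPM in NR. In Vehicle it was at 0.794 CPM in Vehicle 1 and had no read in the other 4 libraries, and 20% of its exonic bases are shared with Gm37759 on the other strand. Both genes were highest in NR 3 and NR 5, and Cacna1s had values above the floor in only 4 libraries.

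Cacng1, a gamma subunit of the muscle channel, was at 0.145, 0.358, 3.85, 0.786 and 2.55 CPM in NR and at 0.298, 0.180, 0, 0 and 0 CPM in Vehicle. Cacng6, its paralog, was at 1.34 CPM in NR 3 and 0.984 CPM in NR 5 and at 0 to 0.131 CPM elsewhere. NR 3 and NR 5 were highest in Cacna1s, Cacna2d2, Cacng1, Cacng6, Scn1a and Scn4a, 6 of the 38 members. Of the 33 tested among these, 3 had the pattern, as did 4.02% of all tested genes, since Cacna1s, Cacng1 and Cacng6 were not tested. The skeletal muscle actin Acta1 was at 287 and 124 CPM in these libraries and at 0.511 to 29.6 CPM elsewhere. Of 13 tested skeletal muscle genes, 13 had a log2 fold change above 0, with a median of 2.92, and 10 were called higher at the unadjusted threshold (76.9%, against 4.83% of all tested genes). Myh7 and Tnnc2 were under 1 CPM in every library.

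With DESeq2, Cacng1 was higher in NR at an adjusted p of 0.0378, with a log2 fold change of 4.04 (SE 1.07), and it was the only member past that threshold. Its NR mean was 1.54 CPM and its Vehicle mean 0.0955 CPM, below the floor. Scn4a had a log2 fold change of 1.25 (SE 0.65), and without NR 3 and NR 5 it was -0.21 (SE 0.52), so that its sign turned. It was called in neither fit. The muscle class genes that other cells also use did not follow these libraries. Cacnb1 was at 39.3, 33.3, 35.8, 32.7 and 34.1 CPM in NR and at 30.9, 33.3, 38.6, 29.7 and 36.1 CPM in Vehicle, with a log2 fold change of 0.055 (SE 0.083). Cacna1c, the L-type pore of heart and smooth muscle and of neurons, was at 19.6 ± 1.93 CPM in NR and 17.0 ± 2.51 in Vehicle (SD, n = 5), with a log2 fold change of 0.20 (SE 0.11). Smooth muscle genes summed to 148 to 199 CPM in NR and 142 to 214 CPM in Vehicle.

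**Figure D5:**
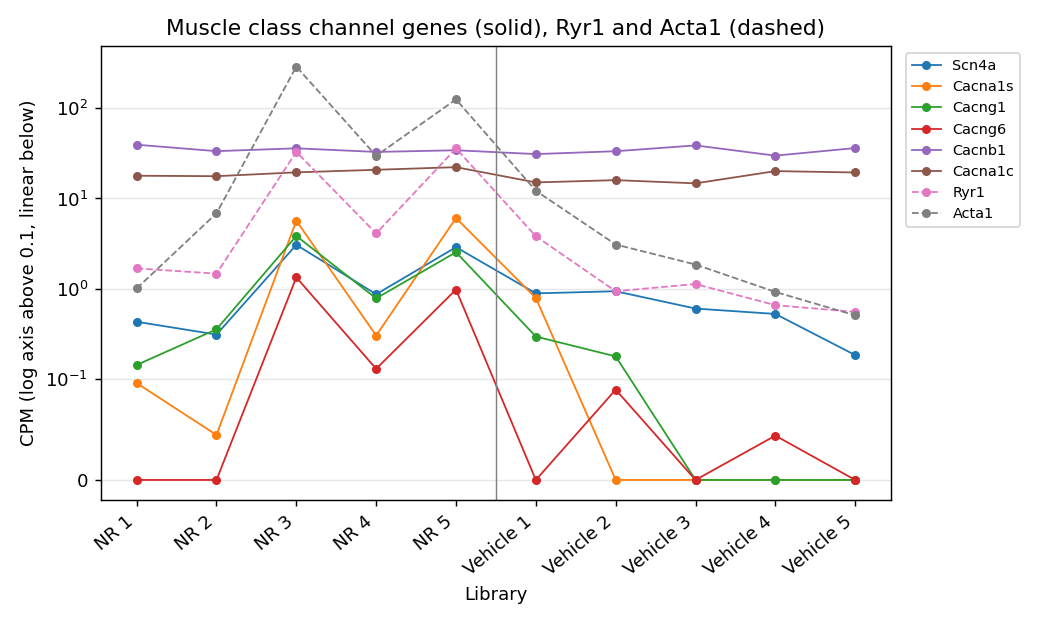
CPM in each of the 10 libraries for 6 muscle class channel genes (solid lines) and for Ryr1 and Acta1 (dashed lines), on an axis that is logarithmic above 0.1 CPM and linear below. Scn4a, Cacna1s, Cacng1 and Cacng6 peak with Ryr1 and Acta1 in NR 3 and NR 5, while Cacnb1 and Cacna1c stay within 29.7 to 39.3 and 14.7 to 22.2 CPM.

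A list of 40 genes that work with these channels (fibroblast growth factor homologs, node and initial segment anchors, calmodulins, ryanodine receptors and junctophilins among them) was set beside them. All 40 were tested, 28 had a log2 fold change above 0 and 12 below, and the median was 0.11. At the unadjusted threshold 5 were higher (12.5%, against 4.83% of all tested genes) and 1 was lower (2.5%, against 4.88%), and 0 passed an adjusted p of 0.05 in edgeR or DESeq2. Fgf11 and Fgf12 encode intracellular proteins that bind the tail of sodium channels, and they had log2 fold changes of 0.40 (SE 0.12) and 0.45 (SE 0.20). Fgf11 was called in all 10 fits that left out 1 library and kept its call without each set of libraries that stood apart, with log2 fold changes of 0.39 to 0.46. Cntn1, an adhesion protein of the paranode, was at 0.18 (SE 0.077), and Nrcam, which gathers sodium channels at nodes, was at -0.22 (SE 0.094). Fgf12, Cntn1 and Nrcam were called in 4, 6 and 3 of 10 fits that left out 1 library, and each lost its call without each set of libraries that stood apart.

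Ryr1, the calcium release channel that couples to Cacna1s, was at 1.69, 1.48, 32.7, 4.11 and 35.7 CPM in NR and at 3.82, 0.943, 1.13, 0.661 and 0.557 CPM in Vehicle. It was highest in the same libraries as the muscle channel genes, and its log2 fold change of 3.42 (SE 1.00) came to 0.79 (SE 0.64) without NR 3 and NR 5. Jph2, a junction protein of muscle, had a log2 fold change of 0.66 (SE 0.25). It was called in 7 of 10 fits that left out 1 library and in none of the fits without a set of libraries that stood apart. In Fgf13, Rem2, Jph3 and Jph4 the 4 highest libraries were NR 1, NR 3, NR 5 and Vehicle 1, which held for 3.22% of all tested genes. Fgf13, for example, was at 26.2, 26.0, 30.2 and 29.2 CPM there and at 3.84 to 11.5 CPM elsewhere. None of these partners was called in the edgeR fit of all 10 libraries with the filter on low counts and no covariate. Jph3 and Jph4 had an edgeR p of 0.0643 and 0.0514 there, and of 0.0374 and 0.0262 without the filter. DESeq2 called Jph4 (p 0.0316).

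A list of 14 genes of spiral ganglion neurons, not particular to them, was also set beside the neuron class of channels. It holds Prph, described above, and Uchl1, which were both highest in NR 1, NR 3, NR 5 and Vehicle 1. Uchl1 was at 470, 511, 536 and 381 CPM there and at 172 to 353 CPM elsewhere, and it was called higher. Of 14 such genes 10 had a log2 fold change above 0, with a median of 0.22, and 3 were called higher (21.4%, against 4.83% of all tested genes). Of all 18329 tested genes, 8640 lay above 0. The summed level of the 14 listed genes overlapped between groups, at 7545 to 8360 CPM in NR and 5905 to 8889 CPM in Vehicle. It was lowest in Vehicle 3 and Vehicle 4. The summed level of central nervous system glia genes was 168 CPM in Vehicle 1 and 376 to 601 CPM elsewhere. That of 8 central neuron genes was highest in Vehicle 3 and Vehicle 4, at 81.5 and 103 CPM, against 40.7 to 68.8 CPM elsewhere. Most of this sum was a single gene, Fat2, at 28.6 to 89.9 CPM over the libraries. Of the 4 central neuron genes tested, 3 had a log2 fold change above 0 and 1 below, with a median of 0.42. Gabra6, Neurod2, Slc6a5 and Opalin were under 1 CPM in every library. The part of these differences in the values of the channel genes was not tested.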

How the data were processed

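The deposited values are raw read counts per gene, 1 file per mouse, with no normalization. Per the study's methods and processing notes, poly(A) libraries (an unstranded kit) were read paired-end on a NovaSeq, aligned to mm10 with STAR 2.6.1d and counted with featureCounts 1.5.0 in its default mode, and the authors tested them with DESeq2 1.26.0. The annotation release is not given in the sources used here. All 40 members had the same coordinates in GENCODE M21. Reads from overlapping genes on either strand, and from paralogs, may not be told apart.

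Counts of 5 NR and 5 Vehicle mice were compared over the whole table with edgeR 4.0.16 (R 4.3.3; filterByExpr, TMM, glmQLFit, glmQLFTest, no covariate), and p-values were adjusted by Benjamini-Hochberg over 18329 genes. DESeq2 1.42.0 was an alternative, as were its size factors in edgeR, other filters, robust dispersion estimation, a block on replicate number and leaving out each mouse. A further 3 omissions of libraries were chosen after the data had been seen. Exact permutation tests used the mean CPM over all labelings of the 10 mice, two-sided. The standard error is the log2 fold change over the root of its F statistic. Overlaps of exons, motif matches and figures were made with python 3.11.15. The edgeR step was tested on simulated data. No pair of libraries had counts within sampling noise of each other.

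Some members and marker genes are not reported here one by one and stay in the counts. The members and lists were chosen with earlier results of these data known. Genes given with the value in each mouse are those at an unadjusted p of 0.05, the highest 2 per class by level per kb, and Cacna1d, Scn1a, Scn8a, Scn10a, Scn11a, Scn4a and Cacna1s for their known roles. Trpv1, Calca, Tac1, Prph, P2rx3, Otof, Uchl1 and Fat2 were named after their values were seen. So were the members and channel partners that followed certain libraries.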

Additional observations from a re-analysis of the deposited data

Results flagged for a closer look

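Each of 38 channel genes was examined in each group of 5 mice for a highest or lowest value that stood apart from the other 4 by Dixon's criterion. Of 76 such groups, 12 held one. The criterion flags about 1 in 20 groups by chance if values are normally distributed, which was not tested for these CPM values. The genes were read in the same mice, so the groups are not independent and the 12 cannot be compared with that rate. In 9 of the 12 groups the library that stood apart was Vehicle 1, always as the highest of its group. Vehicle 1 stood apart at 61.6 CPM for Cacna1h, 101 CPM for Scn7a, 33 CPM for Scn9a, and 17 CPM for Scn3b, all genes that were highest in NR 1, NR 3, NR 5 and Vehicle 1. It stood apart at 8.49 CPM for Scn10a and 3.28 CPM for Scn11a, the nociceptor channels. The remaining genes were Cacng4 at 26.6 CPM, Scn3a at 2.73 CPM and Cacna1s at 0.794 CPM.

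In the NR group, NR 4 stood apart as the highest library for Scn11a, at 5.5 CPM. NR 1 was the lowest for Cacna1i, at 0.916 CPM, and for Cacna2d3, at 47.4 CPM.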

How the results depend on the processing

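The counts of called channel genes moved with the tool, the filter and the libraries, and the cause was not tested. Against 4 higher and 3 lower members, DESeq2 gave 8 higher and, at an adjusted p of 0.05, 1 member. Without a filter on low counts 9 were higher, beside 1414 of all genes in that fit. Leaving out 1 mouse gave 2 to 13 higher and 1 to 4 lower, and 0 at an adjusted p of 0.05 in each of the 10 edgeR fits. The counts over all tested genes moved too, from 886 higher and 894 lower. They were 669 to 1414 higher and 484 to 1059 lower when leaving out 1 mouse. Without the 4 libraries highest in P2rx3 4 were higher (Scn2b, and Scn7a, Scn9a and Scn10a that were not called before) and 1 was lower. Of all genes tested in that fit, 359 were higher and 353 lower, and the Scn10a call rested on NR 4. Without NR 3 and NR 5, 1 member was higher and 1 lower, beside 460 and 383 of all tested genes. In the fit without Vehicle 3 and Vehicle 4, 3 members were higher (Cacng1, Cacng5 and Scn2b) and 1 was lower. That fit called 767 of all tested genes higher and 1042 lower. The channel partners moved from 5 higher and 1 lower to 2 lower without a filter, and to 2 to 8 higher and 0 to 4 lower when leaving out 1 mouse. They moved to 2 higher and 0 lower without the P2rx3 libraries, to 1 and 0 without NR 3 and NR 5, and to 3 and 0 without Vehicle 3 and Vehicle 4. DESeq2 size factors and a robust dispersion called the same 7 members.

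The replicate number, used as a block, gave 9 members higher and 3 lower, and 2 partners lower, beside 879 of all tested genes higher and 776 lower. Correlations of the deviations of same-numbered mice were 0.17, -0.118, -0.22, 0.016 and 0.134. The sources used here give these mice nothing in common but the number, and whether they shared a batch was not tested.

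Reversed log2 fold changes were all of genes that were not called. Without a filter on low counts Cacnb4 was at 0.0085 and Scn8a at 0.0064, and with a CPM of at least 1 in at least 5 mice they were at 0.0047 and 0.0020. Without the P2rx3 libraries Cacnb1 was at -0.058, Cacnb4 at 0.036, Scn4b at -0.027 and Scn8a at 0.057. Without NR 3 and NR 5 Cacnb4 was at 0.010, Cacng8 at 0.044, Scn4a at -0.21, Scn4b at -0.024 and Scn8a at 0.024. Without Vehicle 3 and Vehicle 4 Cacna1a was at -0.032, Cacna2d1 at 0.00028, Cacnb3 at -0.0097, Cacng2 at -0.012, Cacng7 at -0.040, Cacng8 at 0.11 and Scn4b at -0.11. Leaving out 1 mouse gave ranges of -0.13 to 0.029 for Cacna2d1, -0.017 to 0.020 for Cacnb4, -0.050 to 0.092 for Scn4b and -0.064 to 0.067 for Scn8a.

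With 3 reads at 0.121 to 0.174 CPM, the depth did not resolve Cacna1f, Cacng3 and most values of Cacng6.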
